A study of Mus musculus with 5 samples.

Results

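On mouse chromosome 13, 214 sites of the transcription factor WT1 were listed in both replicates of M15 cells, out of 5688 such sites on 20 chromosomes. They were chosen by merging the peaks of 4 WT1 peak lists wherever these shared at least 1 bp and keeping the merged regions with a peak in both M15 lists. Of the 214 sites, 159 (74.3%) also held a peak in both lists of the edited line KTS-minus, 41 (19.2%) held one in 1 of them and 14 (6.54%) in neither. Over all 5688 sites these shares were 93.7%, 5.05% and 1.23%. Presence in the lists defined these classes, and the chromosome was picked for its missing sites, so these shares are a description and no test was made of them. Positions are given in the mm9 build, counted from 1.

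WT1 is a zinc-finger protein needed for the formation of the kidney and the gonad. Its transcript is spliced with or without the codons for lysine, threonine and serine (KTS) between the last zinc fingers. The form without KTS binds DNA at GC-rich sites, whereas the form with KTS binds DNA less tightly and has been linked to RNA processing. Mutations that disturb the balance of the forms cause disorders of the kidney and of sex development.

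WT1 was mapped by CUT&RUN, in which an antibody on chromatin recruits a nuclease that releases the DNA next to the bound protein for sequencing. M15 cells are mouse mesonephric epithelium transformed with the large T protein of polyoma virus, and all libraries of this report came from this background. One group was M15 itself (2 replicates), the other a genome-edited derivative labelled KTS- (2 replicates), all with the WT1 antibody ab89901. The labels do not say which isoform the edited cells still make, how many clones the line comprises, or whether replicates were separate cultures, so the spread between replicates may be technical.

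The lists differ widely in length, which bears on every count of missing sites. M15 replicates 1 and 2 listed 6440 and 60922 peaks on the 20 chromosomes, and KTS-minus replicates 1 and 2 listed 310994 and 244424. On chromosome 13 the numbers were 228, 1916, 5671 and 7617. The lowest total signal in each list was 9577 and 2357 coverage units in M15 and 3724 and 4183 in KTS-minus, each in the library's own units. The lists give no read counts, so depth is unknown, and 95% Wilson intervals below cover counting error over sites only.

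The first question was in which KTS-minus library the chromosome 13 sites were missing. KTS-minus replicate 1 lacked a peak at 44 of the 214 sites (20.6%, 95% interval 15.7 to 26.5), against 4.15% of the sites on all chromosomes. KTS-minus replicate 2 lacked 25 (11.7%, 8.04 to 16.7), against 3.36% on all chromosomes. The 2 lists therefore lacked unequal numbers of sites: of the 41 sites with a peak in 1 list, 30 were found only in replicate 2 and 11 only in replicate 1. The 14 sites missing from both lists are part of both counts.

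Chromosome 13 ranked first of 20 in both libraries. In replicate 1 the other chromosomes ran from 0.331% to 12.5%, the value of chromosome 12 (13 of 104), and 20.6% lay above them. The difference from chromosome 12 was not tested. In replicate 2 chromosome 13 (11.7%, 25 of 214) and chromosome 12 (11.5%, 12 of 104) lay together, and the next lower chromosome, 1, had 5.98%. For sites missing from both lists the shares were 6.54% on chromosome 13, 5.77% (6 of 104) on chromosome 12 and 3.80% (7 of 184) on chromosome 1. Chromosome 13 thus lay above chromosome 12 in replicate 1 and level with it in replicate 2.

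Chromosomes covered less by KTS-minus peaks tended to have a higher share of missing sites, and chromosome 13 is one of them. Over the 20 chromosomes, which share the 4 libraries, Spearman's rho between the covered share and the missing share was -0.90 in replicate 1 and -0.67 in replicate 2. Both shares come from the same list, and peaks that cover more of a chromosome overlap more sites by coverage alone. A negative value is therefore partly built in. Peaks of KTS-minus replicate 1 covered 5.32% of chromosome 13, the fourth lowest share of 20, against a median of 17.7%. In replicate 2 they covered 4.55%, against a median of 7.57%. Chromosome 14 was covered about as little by replicate 2, at 4.48%, but lacked a peak of that list at only 2 of its 180 sites (1.11%). By replicate 1 it was covered more than chromosome 13, at 14.7%, and peaks of that list can extend the merged sites. The 3 chromosomes nearest in replicate 1 coverage were 1, 3 and 7, with 6.05%, 4.78% and 4.95%. These 3 were covered less than chromosome 13 by replicate 2, at 2.96%, 2.79% and 2.49%. At their 533 sites, replicate 1 lacked 7.88% (5.88 to 10.5) and replicate 2 lacked 5.44% (3.81 to 7.70). Both shares were below those of chromosome 13, which was picked for its missing sites, and this difference was not tested. Sites without any KTS-minus peak made up 2.25% on the 3 chromosomes.

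**Figure D1:**
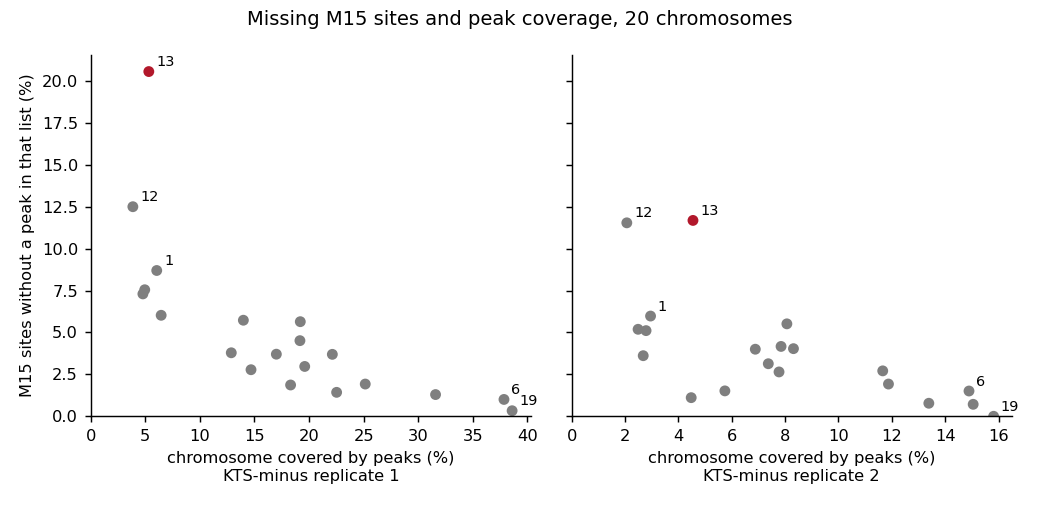
Share of M15 sites without a peak in a KTS-minus list (vertical axis, %) against the share of the chromosome covered by that list's peaks (horizontal axis, %), 1 point per chromosome, with KTS-minus replicate 1 on the left and replicate 2 on the right. Chromosome 13 (red) has the highest share in both panels, 20.6% and 11.7%, and is joined by chromosome 12 only in the right one.

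The M15 lists spread differently over these chromosomes. M15 replicate 2 listed 15.9 peaks per Mb on chromosome 13, against 6.14, 5.52 and 6.75 on chromosomes 1, 3 and 7, and M15 replicate 1 listed 1.90 against 1.08, 0.909 and 1.53. Chromosome 13 held 3.54% and 3.15% of the peaks of M15 replicates 1 and 2, 1.82% of those of KTS-minus replicate 1 and 3.12% of those of replicate 2. The smaller share was thus seen in 1 KTS-minus library only. DNA copy number was not measured in either line, so a different number of copies of the chromosome and a different occupancy by WT1 cannot be told apart.

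The missing sites were next set against the strength of the M15 peak, ranked by max signal, the highest coverage in a peak, within its whole list. The split did not use this value, but each site took the highest M15 peak of its merged region, which KTS-minus peaks can extend. Ordered by the mean of the M15 ranks, the strongest 54 of the 214 sites held 3 sites that lacked a peak in at least 1 KTS-minus list (5.56%), a class that made up 6.28% of the sites on all chromosomes. The following 53 held 11 (20.8%), the next 54 held 17 (31.5%) and the weakest 53 held 24 (45.3%). Sites missing from both lists numbered 1, 1, 4 and 8 in these groups, from strongest to weakest. This order is set mainly by M15 replicate 2, whose list is longer. Ordered by the mean rank percentile, which weights the replicates alike and was added after the data were seen, the same groups lacked a peak at 3 (5.56%), 17 (32.1%), 15 (27.8%) and 20 sites (37.7%), and 0, 4, 3 and 7 were missing from both lists. The strongest group had the lowest share in both orders, and the steps among the other 3 depended on the order used.

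Median max signal was 36 in M15 replicate 1 and 15 in replicate 2 at the 159 sites found in all 4 lists. It was 32 and 11 at the 41 sites in 1 KTS-minus list, and 29 and 10 at the 14 in neither. The ranges overlapped widely, from 11 to 134 at the first, from 14 to 69 at the second and from 14 to 42 at the third in replicate 1. In replicate 2 they ran from 6 to 55, from 6 to 26 and from 4 to 22. No site with a max signal above 42 in M15 replicate 1 was missing from both KTS-minus lists. As a rank percentile, where 100 is the strongest peak of the list, the sites in neither list had medians of 35.2 and 81.5 and the sites in all lists 52.4 and 94.1. The difference in M15 replicate 1 rests on few sites: when peaks of that replicate alone defined the sites, 17 had no KTS-minus peak and their median was 3.05 percentile points above that of the sites in both KTS-minus lists.

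**Figure D2:**
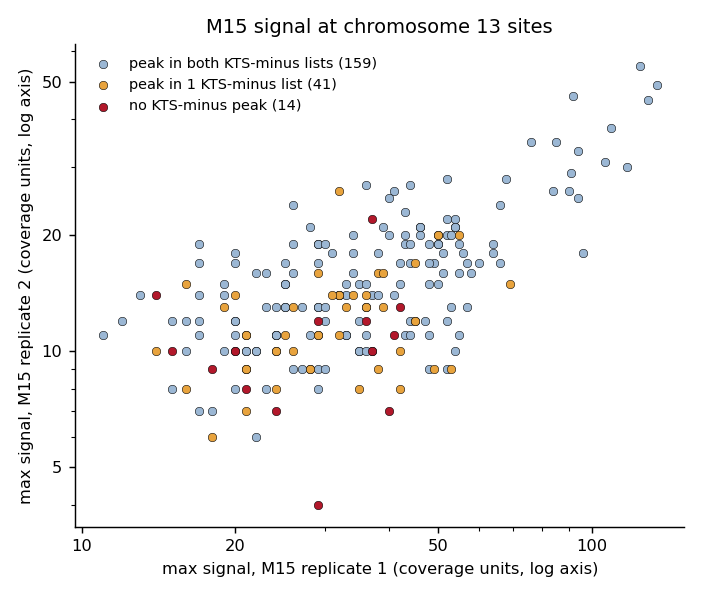
Max signal of each chromosome 13 site in M15 replicate 1 (horizontal) and replicate 2 (vertical), both in the library's own coverage units on log axes, 1 point per site. Sites without a KTS-minus peak (red, 14) stop at 42 on the horizontal and 22 on the vertical axis, within the cloud of the 159 sites found in all lists.

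Chromosome 13 was also set against the others within classes of M15 strength. Sites on all chromosomes were split into quartiles by their mean M15 rank percentile. In the weakest quartile, 25 of 67 chromosome 13 sites (37.3%) lacked a peak in at least 1 KTS-minus list, against 8.93% of 1355 sites elsewhere. In the second and the third quartile the shares were 28.8% of 52 against 7.45%, and 23.6% of 55 against 4.02%. In the strongest quartile they were 5.00% against 1.74%, where the former rests on 2 of 40 sites. The other chromosomes were pooled, and most were covered more by KTS-minus peaks than chromosome 13. Chromosomes 1, 3 and 7 were not split by M15 strength. Over all strengths, 11.1% of their 533 sites lacked a peak in at least 1 list. This compares with 25.7% on chromosome 13 and 5.52% on all other chromosomes. Sites missing from both lists made up 11.9%, 5.77%, 5.45% and 0% of the chromosome 13 quartiles from weakest to strongest, and 1.92%, 0.876%, 0.805% and 0.507% elsewhere. Counting error alone allows a share of up to 7.50% for 0 of 40 sites, taken as 3 of 40. M15 signal itself was close on chromosome 13 and elsewhere: over all sites the median rank percentile was 49.1 against 53.2 in M15 replicate 1 and 92.4 against 94.0 in replicate 2.

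**Figure D3:**
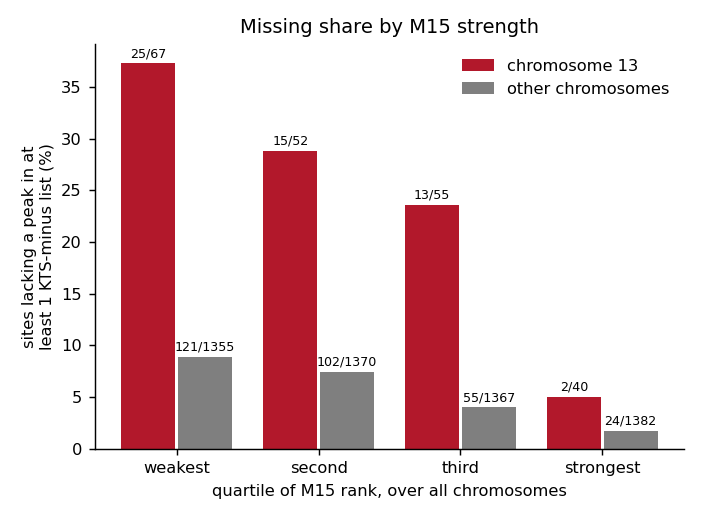
Share of M15 sites lacking a peak in at least 1 KTS-minus list (vertical axis, %), by quartile of M15 rank over all chromosomes, for chromosome 13 (red) and the other chromosomes (grey), with counts above the bars. The chromosome 13 bar is higher in each quartile, from 37.3% against 8.93% in the weakest to 5.00% against 1.74% in the strongest. The grey bars pool all other chromosomes, whatever their coverage by KTS-minus peaks.

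Missing sites on chromosome 13 were narrower, which is partly built in: a narrower peak is less likely to share a base with a KTS-minus peak. The widest M15 peak of each merged region was taken, and KTS-minus peaks can extend that region. M15 peaks at the 14 sites without a KTS-minus peak had median widths of 1364 bp in M15 replicate 1 and 1054 bp in replicate 2, and those at sites in all lists 1731 bp and 1406 bp. The 41 sites in 1 KTS-minus list lay near the former, at 1400 bp and 1080 bp. The part that width has in being missed was not tested. Within quartiles of M15 peak width over all chromosomes, 30 of 71 chromosome 13 sites (42.3%) lacked a peak in at least 1 list in the narrowest quartile, against 149 of 1351 elsewhere. In the widest quartile it was 1 of 32, against 31 of 1390.

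Where KTS-minus peaks were present on chromosome 13, they stood lower in their lists than at M15 sites elsewhere. At the 159 sites in all lists, the median rank percentile was 89.0 and 91.2 in KTS-minus replicates 1 and 2, respectively. At the 5172 such sites on the other chromosomes it was 95.8 and 95.9, and on chromosomes 1, 3 and 7 it was 93.5 and 94.4. The highest peak of each site was taken, and the merged sites had median widths of 2670 bp on chromosome 13, 3766 bp on the other chromosomes and 2497 bp on chromosomes 1, 3 and 7. Chromosome 13 had the lowest median percentile of 20 in replicate 1 and the second lowest in replicate 2, after chromosome 3 (91.1). Median widths of the KTS-minus peaks, 1800 bp and 1239 bp, were near the 1850 bp and 1304 bp of chromosomes 1, 3 and 7. At sites listed in 1 KTS-minus list, peaks were lower than at sites in all lists but above the median of their own list, 13 in replicate 1 and 21 in replicate 2: median max signal was 14 at 11 sites in replicate 1, against 19 at sites in all lists, and 23.5 at 30 sites in replicate 2, against 32.

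The M15 peaks outside the 214 sites also put chromosomes 13 and 12 first, in peaks the choice of sites did not use but against the same KTS-minus lists. On chromosome 13, 1590 regions had a peak in M15 replicate 2 and none in replicate 1. Of these, 794 (49.9%, 47.5 to 52.4) held no KTS-minus peak, against 30.8% on all chromosomes. This was the highest share of 20 chromosomes, followed by chromosome 12 with 41.0% and chromosome 5 with 39.9%. Chromosomes 1, 3 and 7 had 35.8%, 38.7% and 35.8%. A further 11 regions had a peak in M15 replicate 1 only, and 3 of them held no KTS-minus peak, too few to compare.

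Along the chromosome, sites were counted in 25 consecutive bins of 5 Mb, by midpoint. The 214 sites lay in 23 bins, with up to 22 in a bin. The 14 sites without a KTS-minus peak lay in 10 bins: 7 bins held 1 of them, 2 bins held 2 and 1 bin, from 40 to 45 Mb, held 3 of its 22 sites. The full set of 55 sites missing from at least 1 list touched 21 bins. The first 40 Mb held 1 of the 14 sites among its 68 sites, and the rest of the chromosome held 13 among 146. Sites absent from at least 1 list were 10 of 68 (14.7%) and 45 of 146 (30.8%) in these parts, which were divided after their values were seen.

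**Figure D4:**
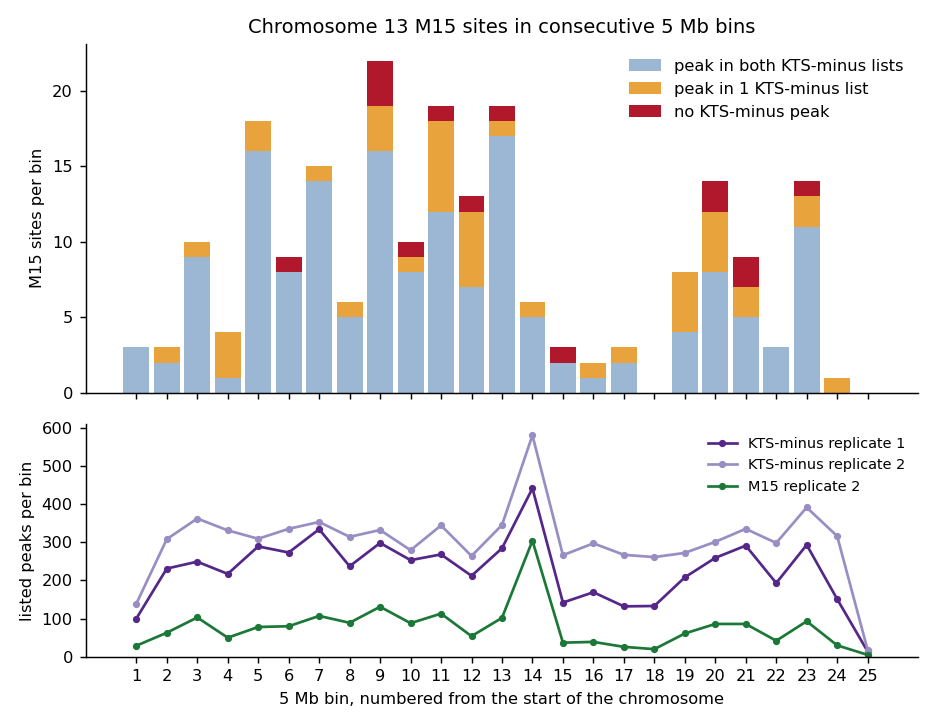
Upper panel, number of M15 sites on chromosome 13 in each consecutive 5 Mb bin, split by KTS-minus presence. Lower panel, listed peaks per bin in both KTS-minus libraries and M15 replicate 2. Sites without a KTS-minus peak (red) occur in 10 bins with at most 3 in a bin, and bin 14 has the most peaks in all 3 libraries plotted below.

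The nearest neighbours of missing sites were counted next. For none of the 14 sites was the nearest other site also without a KTS-minus peak, while such sites made up 13 of the 213 others (6.10%). For 2 of the 14 (14.3%) it was a site missing from 1 list, a class that made up 41 of the 213 (19.2%). With numbers this small, neither count departs far from these shares. The shortest distance between midpoints of 2 of the 14 was 456719 bp, between the sites starting at 43959436 and 44416264, and the median distance to the nearest of them was 1971247 bp. Spacing to any other site was alike: the nearest other site lay at a median of 64482 bp from the 14 and 65516 bp from the 159. Among the 41 sites in 1 list, 10 (24.4%) had a nearest site of the same class, which made up 18.8% of the others, and the closest pair was 9253 bp apart.

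Absence from at least 1 list was also counted in longer stretches, which were picked after their values were seen. From 20 to 40 Mb, 5 of 48 sites (10.4%) lacked a peak in at least 1 KTS-minus list. From 50 to 60 Mb, 13 of 32 (40.6%) did, and from 90 to 105 Mb 14 of 31 (45.2%). Because of this choice, the contrast between the stretches is a description only and depends on their edges. In the adjoining bin from 60 to 65 Mb, 2 of 19 sites (10.5%) lacked such a peak, and from 15 to 20 Mb 3 of 4 did. In the stretch from 90 to 105 Mb, KTS-minus replicate 1 lacked 12 sites and replicate 2 lacked 6. The median max signal of M15 peaks there was 42 and 17 in M15 replicates 1 and 2, against 29 and 14 from 20 to 40 Mb and 27 and 12.5 from 50 to 60 Mb.

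KTS-minus peak density in these stretches was as follows. KTS-minus replicate 1 listed 56.7 peaks per Mb from 20 to 40 Mb, 48.0 from 50 to 60 Mb and 50.5 from 90 to 105 Mb. Replicate 2 listed 65.6, 60.8 and 60.5. Elsewhere density varied more: from 65 to 70 Mb there were 88.2 and 116 peaks per Mb, with 1 of 6 sites lacking a peak in at least 1 list. From 70 to 90 Mb there were 28.8 and 54.6, with 3 of 8 such sites. Over the 15 bins with at least 5 sites, Spearman's rho between the share missing from at least 1 list and the number of peaks was -0.36 for KTS-minus replicate 1 and -0.57 for replicate 2, and 0.09 between that share and the median M15 rank percentile. These values describe 15 neighbouring bins that share their libraries, and the peaks at the sites are counted in both quantities.

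Around the single sites, local density was taken as KTS-minus peaks per Mb within 500 kb to each side, leaving out peaks at the site itself. In KTS-minus replicate 1 its median was 62 at the sites in all lists, 52 at those in 1 list and 68 at those in neither. In replicate 2 the medians were 70, 65 and 71.5. The 14 missing sites ranged from 31 to 84 in replicate 1 and from 39 to 90 in replicate 2, inside the 26 to 200 and 41 to 248 of the sites in all lists except for the lower end in replicate 2. Lower local density was thus not seen at the 14 sites. The mean difference of 3.75 peaks per Mb from the sites in both lists was small. For the same sites it was -1.25 with 100 kb and 1.06 with 2 Mb to each side. Leaving out a library also changed which sites counted as missing. The difference was then -2.50 without KTS-minus replicate 1 (26 missing sites) and -1 without KTS-minus replicate 2 (45). It was -12.5 without M15 replicate 1 (817) and 3.00 without M15 replicate 2 (17).

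**Figure D5:**
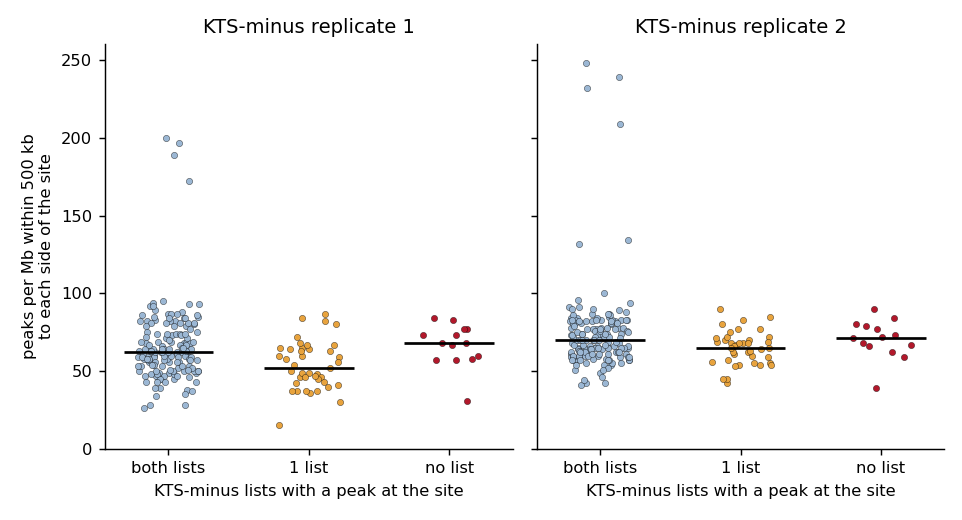
KTS-minus peaks per Mb within 500 kb to each side of every chromosome 13 site (vertical axis), for KTS-minus replicate 1 (left) and replicate 2 (right), by the number of KTS-minus lists with a peak at the site. Horizontal lines are medians, 62, 52 and 68 on the left and 70, 65 and 71.5 on the right, and the 3 groups overlap in both panels.

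Some missing sites had a KTS-minus peak close by. The nearest peak of either list lay at a median of 1408 bp from the 14 sites, from 10 bp to 15320 bp, and for 5 of them within 1 kb. Of the 44 sites without a replicate 1 peak, 9 had one within 1 kb, and of the 25 without a replicate 2 peak, 2 did. Median gaps of the 14 sites were 2045 bp to replicate 1 and 3252 bp to replicate 2. At the 56 sites without a KTS-minus peak on the other chromosomes they were similar, 1625.5 bp and 3296.5 bp. At the edge of the rule, the site from 29033645 to 29035153 missed a KTS-minus replicate 1 peak by 10 bp and the site from 60413516 to 60414639 by 80 bp. On the other side of it, the smallest overlap of a KTS-minus peak with an M15 peak was 89 bp in replicate 1 and 410 bp in replicate 2. In each list 1 further peak was joined to its site only through a peak of another list. The median overlap was 1346 bp and 1068 bp.

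The 14 sites are given here in order along the chromosome. The first (29033645 to 29035153) reached 24 in M15 replicate 1 and 7 in replicate 2. Between 42 and 46 Mb lay 4 sites. These had values of 40 and 7 (42197973 to 42199290), 29 and 12 (43959436 to 43960734), 41 and 11 (44416264 to 44417344) and 36 and 12 (45034400 to 45036217). The site starting at 44416264 was the most isolated, with the nearest peaks 15595 bp and 15320 bp away in KTS-minus replicates 1 and 2.

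In the middle of the chromosome there were 4 more. The site from 52753723 to 52755310 reached 18 and 9 and was also far from KTS-minus peaks, by 10617 bp and 13747 bp. The site from 55583584 to 55585490 reached 14 in both M15 lists, with KTS-minus peaks 2675 bp and 871 bp away. The sites from 60413516 to 60414639 and from 70862735 to 70864282 reached 37 and 10, and 21 and 8. Distances over 10 kb in both lists were thus found at 2 of the 14 sites.

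The remaining 5 lay in the distal part. The site from 98376851 to 98378265 had 37 and 22. It was the strongest of the 14 by mean M15 rank, 53rd of the 214 sites, and 78th by mean percentile. Peaks of KTS-minus replicates 1 and 2 came within 351 bp and 1239 bp of it. The site from 104273303 to 104274749, the strongest of the 14 by mean percentile (75th), had 42 and 13, with KTS-minus peaks 607 bp and 1057 bp away. The other 3 reached 20 and 10 (99402120 to 99405334), 29 and 4 (102302107 to 102303451) and 15 and 10 (112978442 to 112980256). The site starting at 102302107 stood 214th by mean M15 rank and 213th by mean percentile, although its 29 in M15 replicate 1 was well above the lowest value there, 11.

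Among the 41 sites in 1 KTS-minus list, the 6 with the best mean M15 rank showed how far the libraries disagreed. The site from 91599371 to 91601224 had 55 and 20 in M15 and 65 in KTS-minus replicate 2, where it ranked 823 of the list, while the nearest peak of replicate 1 was 12484 bp away. The site from 94072682 to 94073987 had 69 and 15 in M15 and 17 in KTS-minus replicate 1, with the nearest replicate 2 peak 9593 bp away. A site high in one KTS-minus list could thus be absent from the other.

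The other 4 had lower KTS-minus values than these within the same list. The sites from 98315562 to 98316634, 43779312 to 43780887 and 17060212 to 17061471 were listed in KTS-minus replicate 2 alone, with 20, 28 and 30. Their M15 values were 50 and 20, 32 and 26, and 39 and 16. The site from 13681857 to 13683440, with 45 and 17 in M15, was listed in KTS-minus replicate 1 alone with 11, and a replicate 2 peak lay 809 bp away.

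The 6 best-ranked M15 sites among the 159 in all lists were as follows. The site from 28848953 to 28852201 had M15 values of 124 and 55 and KTS-minus values of 42 and 82. For the site from 60277627 to 60280296 the M15 values were 134 and 49, those of KTS-minus 39 and 78. The site from 55545412 to 55548324, with 129 and 45 in M15, ranked 8621 in KTS-minus replicate 1 (24) and 235 in replicate 2 (92). Signal has no shared scale between libraries, so only ranks within a list can be set side by side.

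Next came the site from 60386553 to 60389916, with M15 values of 109 and 38 and KTS-minus values of 69 and 131. Between midpoints it lay 25843 bp from the missing site that starts at 60413516. The narrow site from 44964861 to 44965619, 759 bp wide, had 92 and 46 in M15 and the best KTS-minus ranks of these 6, 21 and 18, with 150 and 187. It lay 70069 bp from the missing site that starts at 45034400. The sixth, from 63254840 to 63258258, had M15 values of 106 and 31 and KTS-minus values of 34 and 80. For both of these missing sites the nearest other site was thus one high in all 4 lists. The median distance from a missing site to its nearest other site was 64482 bp, so this spacing was not unusually close throughout.

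The 3 weakest of the 159 sites in all lists, by mean M15 rank, reached 17 and 7 (112993415 to 112996599), 18 and 7 (114340099 to 114343554) and 22 and 6 (12741902 to 12743773) in M15. Their KTS-minus values were 9 and 19, 16 and 42, and 16 and 15. The first of them lay 15658 bp from the missing site that starts at 112978442.

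Bin 14, from 65 to 70 Mb, stood apart in peak number but held few of the sites. It had 441 and 580 peaks in KTS-minus replicates 1 and 2 and 304 in M15 replicate 2, the highest of the 25 bins in each, but 6 in M15 replicate 1. Most lay between 65 and 67 Mb, where 2 consecutive 1 Mb bins held 150 and 177 peaks of KTS-minus replicate 1 and 199 and 214 of replicate 2. All 6 M15 sites of the bin had a KTS-minus peak, and 1 of them in 1 list only. Among the 245 regions listed in M15 replicate 2 alone there, 19.2% had no KTS-minus peak, against 49.9% on the whole chromosome.

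The rank of chromosome 13 depended on how sites were defined. With M15 replicate 1 peaks alone as sites, 17 of 225 (7.56%) had no KTS-minus peak, against 2.92% on the other chromosomes. Chromosome 13 then had rank 3 of 20. With the strongest 50% of each list by total signal, 2 of 96 sites (2.08%) were missing, also rank 3, against 0.771% on the other chromosomes. With a 50% reciprocal overlap, 20.4% were missing against 15.3%, rank 4. Without M15 replicate 1, without KTS-minus replicate 1 and without KTS-minus replicate 2 it ranked first, with 817 of 1815, 26 of 215 and 45 of 214 sites missing. Genes and sequence motifs at the sites were not analysed here.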

How the data were processed

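Peak lists of 4 CUT&RUN libraries were used, and the IgG library was not analysed here. Per the submitters' processing notes, the tools included the peak caller SEACR 1.3 and the aligner Bowtie2 2.2.6, and the build was mm9. The authors deposited 1 list per library, with total signal and max signal per peak as coverage values in the library's own units. How coverage was scaled and peaks were thresholded is not given in the sources used here, so signal was compared only within a list. No header names the columns, and the few chromosome Y peaks were left out.

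Ranks used max signal, with ties ordered by total signal. The nearest chromosomes were the 3 closest in coverage by KTS-minus replicate 1. Sites, splits and bins were chosen with earlier results of these data known. Named sites were all those without a KTS-minus peak, the 6 best M15 ranks of those in 1 KTS-minus list, and the 6 best and 3 worst of those in all lists. Sites are not replicates, and 2 libraries against 2 allow no useful permutation test, so none was run. The merging code was tested on simulated data. Alternatives covered overlap, thresholds, bins, windows and leaving out each library. Python 3.11.15, numpy 2.4.6, pandas 2.3.3, scipy 1.17.1 and matplotlib 3.10.9 were used. A genome or annotation of mm9 was not used here, so no sequences are given.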

Additional observations from a re-analysis of the deposited data

How the results depend on the processing

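No paired analysis was possible because no result comes from a test. In 38 of 97 comparisons with an alternative, the result stayed within a set limit. This limit was 1.5 times for counts, the 95% interval for shares and an equal value for the chromosome rank. For median differences it was 1 SD between the 2 lists of a line, a rough limit as it rests on 2 values. The cause was not tested for the other comparisons.

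With the strongest 50% of each list by total signal, chromosome 13 had 96 sites, 77 in both, 17 in 1 and 2 in neither KTS-minus list. The missing share was then 2.08% against 0.771% elsewhere, in 2 bins, at rank 3 of the chromosomes, and 40.3% among regions listed in M15 replicate 2 alone. With stretches of max signal in place of whole peaks there were 59 sites, 7 in both, 22 in 1 and 30 in neither list. The missing share was 50.8% against 40.8% elsewhere, 57.1% in the weakest M15 quartile and 90.0% among regions of M15 replicate 2 alone. With a 50% reciprocal overlap, 76 sites were in both and 34 in neither list, in 16 bins, and the missing share was 20.4% against 15.3%, at rank 4. Merging only the M15 lists gave 47.3% among regions of M15 replicate 2 alone.

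The M15 rank percentile of missing sites minus that of sites in both lists was -14.9 by max signal and -27.2 by total signal. The difference in width was -360 bp for M15 peaks and -1192 bp for merged regions, which KTS-minus peaks themselves can extend. The difference in KTS-minus peaks per Mb was 3.75, and -1.25 with 100 kb to each side. As the share of the window covered it was 0.201 percentage points.

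Leaving out each library in turn gave 214 to 1815 sites, 164 to 530 of them in both lists, 44 to 468 in 1 list and 17 to 817 in neither, in 13 to 25 bins. The largest of these counts came from leaving out M15 replicate 1, which makes every peak of the longer M15 list a site. The missing share ran from 7.56% to 45.0% on chromosome 13 and from 2.92% to 26.9% elsewhere, at ranks 1 to 3, and from 8.82% to 70.6% in the weakest quartile. Among regions of M15 replicate 2 alone it was 64.0% to 64.4%. The differences ran from -48.0 to 3.05 percentile points, from -412 to -157 bp and from -12.5 to 3.00 peaks per Mb. That in density was -2.50 without KTS-minus replicate 1 and -1 without KTS-minus replicate 2.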
